A study of Mus musculus with 12 samples.

Results

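The gp130 cytokines and their receptors were followed in primary mouse chondrocytes treated with dexamethasone (DEX), a synthetic glucocorticoid receptor agonist. The family was chosen by gene name, with earlier results of these data known, and comprised 10 genes. The cytokines were Il6, Il11, Lif and Clcf1. The receptor genes were the shared chain Il6st (gp130) and the chains Il6ra, Il11ra1, Lifr and Osmr, and Socs3 was the feedback inhibitor. Of the 10 genes, 9 had named probe sets, 22 in all, and Il11ra1 was not analysed here because no probe set carried its name. A probe set was tested where its mean intensity reached 50 in at least 1 of the 4 groups. This left 19 probe sets of the family, with at least 1 for each of the 9 genes, among 20897 probe sets in all.

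The chondrocytes came from tibiae, femurs and humeri of E15.5 CD1 embryos and were cultured as monolayers. They received 100 nM DEX for 6 hrs, DMSO vehicle for 6 hrs, DEX for 24 hrs or vehicle for 24 hrs, in fresh medium with ascorbic acid and beta-glycerophosphate. Each group held 3 arrays, numbered 1, 2 and 4, from cells that the study describes as independent isolations. The array records number the third 6 hrs pair 3 where the labels have 4, and the labels' number was used. Whether the same isolations served both times is not given in the sources used here, so that the 6 pairs of DEX and vehicle arrays may come from only 3 isolations and need not be independent of each other. Values are GC-RMA intensities on a linear scale, and each probe set is compared only with itself, because the probes of different probe sets bind with different strength.

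Cytokines of this family signal through a receptor complex that contains gp130. IL-6 and IL-11 first bind a private receptor chain, Il6ra or Il11ra1, whereas LIF and CLCF1 use Lifr beside gp130 and oncostatin M uses Osmr or Lifr. The complex activates JAK kinases, which phosphorylate STAT3. SOCS3, whose gene is a target of STAT3, binds gp130 and dampens the signal. In the skeleton these cytokines are known for their effects on osteoclast formation, bone growth and cartilage turnover, and glucocorticoids are known to repress Il6 in many cell types.

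All 17 cartilage markers fixed for the comparison (among them Col2a1, Acan and Sox9) passed the minimum. Of the markers of other cells, 8 of 17 macrophage genes, 17 of 17 tendon and perichondrial fibroblast genes, 10 of 15 skeletal muscle genes and 4 of 12 endothelial genes did so. Among the macrophage genes below the minimum were Itgam, Ptprc, Cd163, Aif1 and all 3 C1q genes, and among the endothelial ones Pecam1, Cdh5 and Tek. The 5 genes chosen as a check of the treatment, Tsc22d3, Klf15, Fkbp5, Per1 and Zbtb16, were higher with DEX in 6 of 6 pairs. Their log2 fold changes lay between 1.84 and 5.00 at 6 hrs and between 1.10 and 4.36 at 24 hrs. Hybridization took 4 days. Every day had DEX and vehicle arrays but only 1 time point, and the effects of time and of day therefore cannot be told apart. Replicates 1 and 2 at 6 hrs, 4 arrays of the third day, stood apart. The log2 difference between the 3′ and 5′ Gapdh probe sets was 0.49 to 0.74 on these arrays, against -0.33 to -0.22 on the other 8.

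The promoters of the cytokines that moved together, and of Socs3, are printed because they show which of the motifs searched stand close to the start of transcription. The sequences are from RefSeq (GRCm38.p6), 250 bases before to 50 after the annotated start, 5′ to 3′ on the strand of the gene, with matches in capitals. They are chr5:30012864-30013163 (plus strand) for Il6, chr7:4778092-4778391 (minus strand) for the downstream of the annotated Il11 starts, chr11:4257318-4257617 (plus strand) for Lif and chr11:117969317-117969616 (minus strand) for Socs3.
Il6: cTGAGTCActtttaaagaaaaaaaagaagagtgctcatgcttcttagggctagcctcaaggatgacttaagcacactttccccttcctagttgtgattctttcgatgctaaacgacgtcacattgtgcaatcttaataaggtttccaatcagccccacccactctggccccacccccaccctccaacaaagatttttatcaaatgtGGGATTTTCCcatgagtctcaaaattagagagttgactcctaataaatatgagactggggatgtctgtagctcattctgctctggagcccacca
Il11: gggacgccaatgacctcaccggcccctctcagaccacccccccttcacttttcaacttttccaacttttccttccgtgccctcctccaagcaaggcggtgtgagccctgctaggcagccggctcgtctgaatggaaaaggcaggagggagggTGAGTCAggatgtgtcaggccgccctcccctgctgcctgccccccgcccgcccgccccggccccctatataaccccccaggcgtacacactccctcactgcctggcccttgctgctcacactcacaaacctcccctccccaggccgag
Lif: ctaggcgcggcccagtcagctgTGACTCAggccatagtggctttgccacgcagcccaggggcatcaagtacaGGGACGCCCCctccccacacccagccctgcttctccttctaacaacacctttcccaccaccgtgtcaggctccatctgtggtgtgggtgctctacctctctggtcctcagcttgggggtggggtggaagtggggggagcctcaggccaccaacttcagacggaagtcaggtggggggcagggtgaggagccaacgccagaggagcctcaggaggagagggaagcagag
Socs3: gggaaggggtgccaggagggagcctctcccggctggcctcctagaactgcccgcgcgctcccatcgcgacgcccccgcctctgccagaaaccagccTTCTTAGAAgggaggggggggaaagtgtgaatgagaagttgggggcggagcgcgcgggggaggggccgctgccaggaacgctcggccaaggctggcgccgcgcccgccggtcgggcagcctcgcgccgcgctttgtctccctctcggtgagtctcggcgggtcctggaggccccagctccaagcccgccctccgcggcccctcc

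The motifs searched on both strands were AP-1 (TGANTCA), the cyclic AMP response element (TGACGTCA), NF-kB (by its name alone, the usual consensus), STAT (TTCNNNGAA) and the core of a glucocorticoid receptor site (AGAACA). Il6, Il11 and Lif each had an AP-1 match, which began 249, 98 and 228 bases before the start, and 7.81% of all 32851 promoter windows held one. NF-kB matches began 44 bases before the start of Il6 and 178 bases before that of Lif, and 8.46% of all windows held this motif. Socs3 had a STAT match that began 154 bases before its start, and 8.30% of all windows held one. The STAT pattern is its own reverse complement, so any match to it reads on both strands. Of the 12 windows of the 9 members with an entry, the remaining ones held no match except an AP-1 match that began 3 bases after the Osmr start. None of the 12 held an exact match to the cyclic AMP element or the glucocorticoid receptor core, which occurred in 1.79% and 19.0% of all windows. The study searched much farther upstream for a longer glucocorticoid response element and named Il6 among genes with a putative one. These short windows cannot address that site. For Clcf1 no window was used. A match describes these letters only.

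Il11 was lower with DEX at both times, and without a block it was the only member to pass the threshold at 6 hrs. IL-11 acts on bone and stromal cells through Il11ra1 and gp130. At 6 hrs the probe set 1449982_at gave 68.0, 21.9 and 30.2 on the DEX arrays, against 266, 275 and 383 on the vehicle arrays. By 24 hrs the values were 21.2, 36.4 and 20.2 on the DEX arrays, against 96.5, 137 and 58.5 on the vehicle arrays. The groups did not overlap at either time. The log2 fold change was -3.09 ± 0.43 (SE, n = 3 arrays a group) at 6 hrs, an 8.54-fold lower level (limma, adjusted p = 0.0193). This call was lost without DEX replicate 2 or 4 or without any 1 of the 3 vehicle replicates (adjusted p = 0.0674 to 0.0818). At 24 hrs it was -1.88 ± 0.43, which missed the threshold (adjusted p = 0.170) and passed with each pair as a block (adjusted p = 0.0348). Over both times Il11 fell by 2.49 ± 0.31 on the log2 scale (adjusted p = 0.00310), or 5.60-fold. Only 1 of 6 DEX arrays reached an intensity of 50, against 6 of 6 vehicle arrays.

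Il6 was likewise lower with DEX in 6 of 6 pairs, at a dimmer signal. IL-6 is the founding member of the family and an inflammatory cytokine. At 6 hrs the probe set 1450297_at gave 6.67, 11.9 and 5.96 on the DEX arrays, against 55.8, 52.4 and 31.0 on the vehicle arrays. At 24 hrs it gave 16.2, 5.29 and 12.8 on the DEX arrays, against 71.0, 28.0 and 59.6 on the vehicle arrays. The highest DEX array lay below the lowest vehicle array at each time. Over both times Il6 fell by 2.39 ± 0.34 on the log2 scale (SE, n = 6 arrays a treatment), or 5.24-fold. The adjusted p was 0.00784 (limma). At 6 hrs the log2 fold change of -2.53 ± 0.48 missed the threshold (adjusted p = 0.0941), as did -2.25 ± 0.48 at 24 hrs (adjusted p = 0.126). Both passed with each pair as a block (adjusted p = 0.00164 at 6 hrs and 0.00281 at 24 hrs). None of 6 DEX arrays and 4 of 6 vehicle arrays reached 50, so the size of the fold rests on signals near the background. With 16 added to each intensity the log2 fold change over both times was -1.32 (adjusted p = 0.00619). Without the 4 arrays of the third day it was -2.32 and missed the threshold (adjusted p = 0.114).

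Lif showed a smaller difference of the same sign in 6 of 6 pairs. LIF binds Lifr and is known for keeping mouse embryonic stem cells undifferentiated. At 6 hrs the probe set 1421207_at gave 58.9, 94.1 and 74.7 on the DEX arrays, against 160, 232 and 155 on the vehicle arrays, with no overlap. By 24 hrs the values were 61.2, 87.3 and 67.7 on the DEX arrays, against 121, 153 and 81.8 on the vehicle arrays, and the groups overlapped. The log2 fold change over both times was -0.98 ± 0.19 (SE, n = 6 arrays a treatment) and lay just outside the threshold (limma, adjusted p = 0.0527). Without vehicle replicate 4 at 24 hrs it passed (log2 fold change -1.10, adjusted p = 0.0321). With each pair as a block it passed over both times (adjusted p = 0.00539) and at 6 hrs (adjusted p = 0.0199), where the log2 fold change was -1.26 ± 0.28. It did not pass at 24 hrs with the block (log2 fold change -0.69, adjusted p = 0.0824). The second Lif probe set, 1450160_at, stayed below the minimum, between 1.86 and 42.5 on all 12 arrays.

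Clcf1, whose product signals through Cntfr, Lifr and gp130, was lower in 6 of 6 pairs at its brightest probe set, which did not pass the threshold. At 6 hrs the probe set 1437270_a_at gave 87.3, 47.0 and 58.7 on the DEX arrays, against 97.1, 121 and 106 on the vehicle arrays. By 24 hrs the values were 119, 92.3 and 88.6 on the DEX arrays, against 161, 95.7 and 131 on the vehicle arrays. The groups were separate at 6 hrs and overlapped at 24 hrs. Over both times its log2 fold change was -0.57, with a 95% interval of -0.97 to -0.16 (adjusted p = 0.419). The other Clcf1 probe sets gave -0.62 (1437271_at, lower in 6 of 6 pairs) and -0.40 (1450262_at, lower in 4 of 6 pairs). With the pair as a block in limma 1437271_at passed the threshold over both times (adjusted p = 0.0199), whereas the brighter 1437270_a_at did not (adjusted p = 0.123). The same held with the hybridization day as a block (adjusted p = 0.0478 and 0.126).

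**Figure D1:**
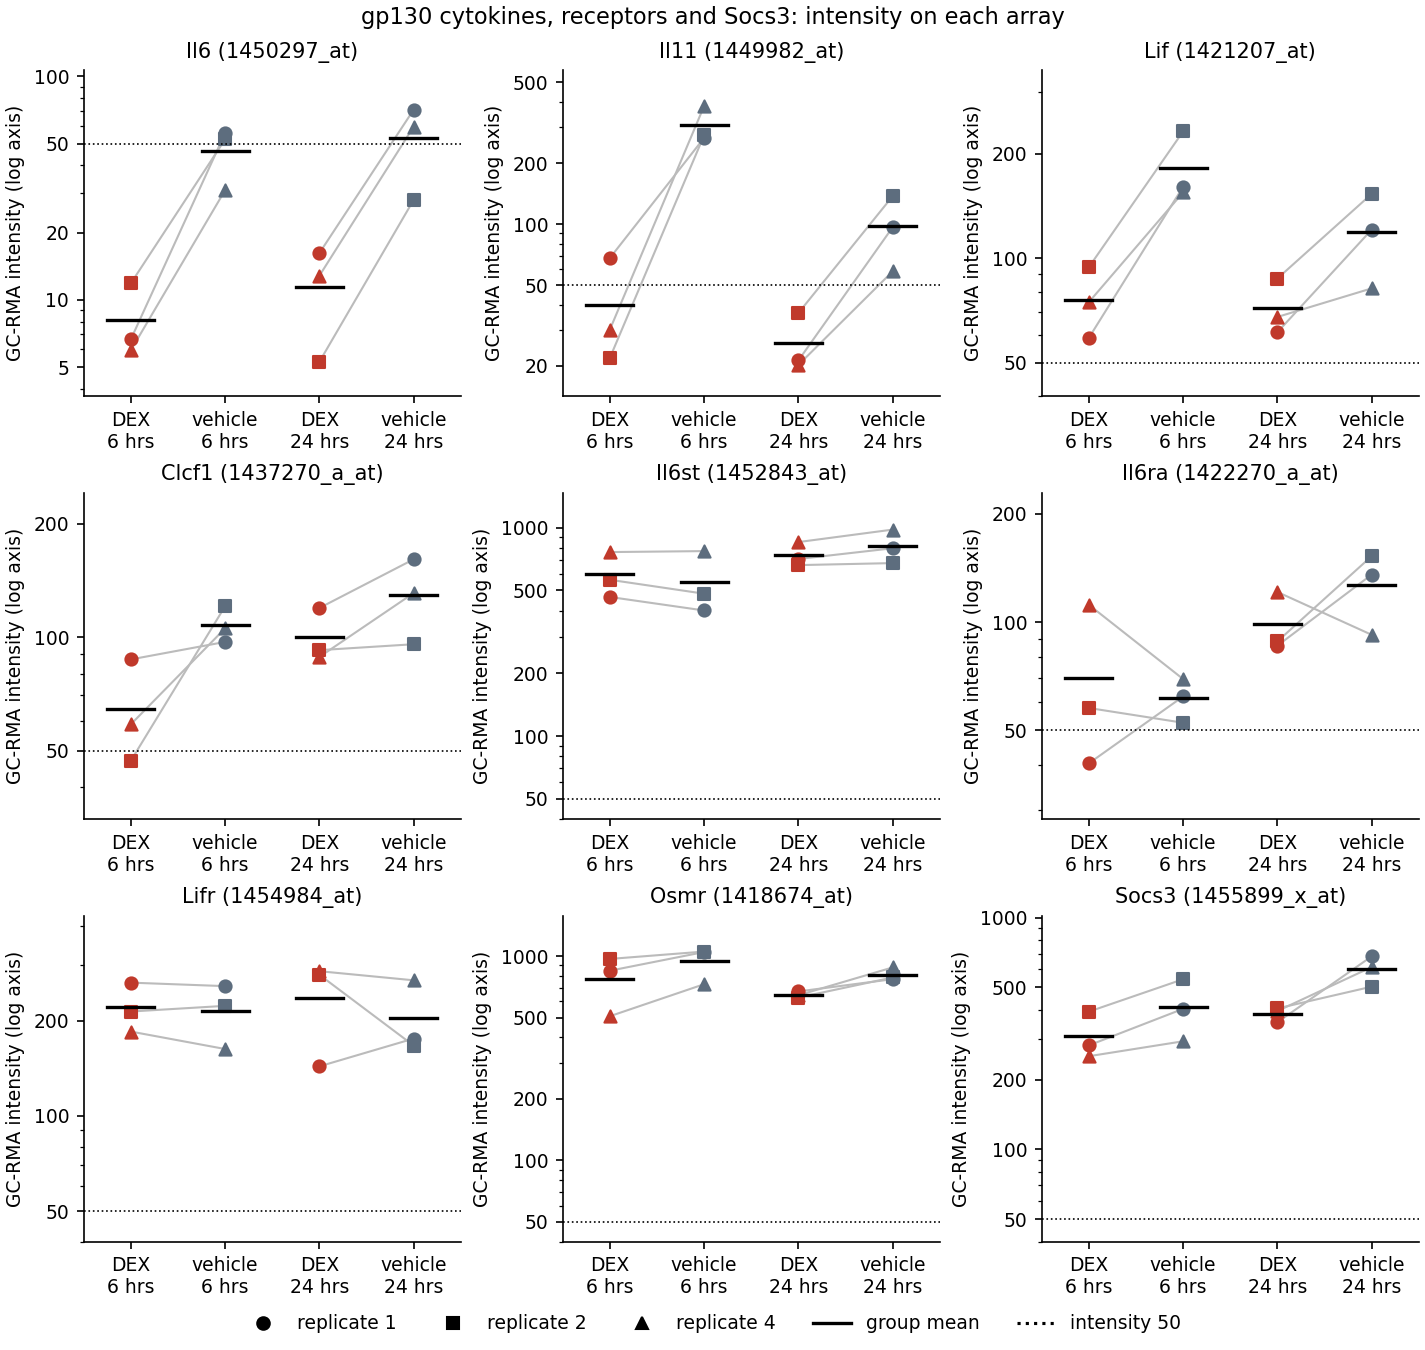
GC-RMA intensity (log axis) of the probe set that stands for each of 9 genes on every array, with DEX in red and vehicle in grey, a line joining each pair, a bar at the group mean and a dotted line at 50. Il6 and Il11 lay lower with DEX in every pair, whereas pairs of Il6st, Il6ra and Lifr ran in both directions.

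The receptor chains gave no call at either time or over both. The gp130 gene Il6st (1452843_at) gave 465, 563 and 764 on the DEX arrays at 6 hrs, against 401, 482 and 773 on the vehicle arrays. The 24 hrs values were 708, 662 and 854 on the DEX arrays, against 797, 677 and 980 on the vehicle arrays. The groups overlapped at both times, and the range among arrays of 1 group was wider than any difference within a pair. Over both times the log2 fold change was 0.0032, with a 95% interval of -0.42 to 0.43. With each pair as a block the interval narrowed to -0.18 to 0.19.

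Lifr, the chain shared by LIF, CLCF1 and oncostatin M, had the same pattern. The probe set 1454984_at gave 264, 214 and 185 on the DEX arrays at 6 hrs, against 258, 223 and 163 on the vehicle arrays. Values at 24 hrs were 144, 280 and 287 on the DEX arrays, against 176, 167 and 269 on the vehicle arrays. Over both times the log2 fold change was 0.12, with a 95% interval of -0.36 to 0.60. The dimmer 1425107_a_at was separate at 24 hrs, at 46.7, 65.8 and 73.3 with DEX against 36.7, 35.5 and 22.2 with vehicle. Its log2 fold change there was 0.99 (adjusted p = 0.597). This probe set passed the minimum only through the DEX group at 24 hrs (mean 61.9), so its being tested already required a high DEX level.

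Osmr, the signalling chain for oncostatin M, differed by little but in the same direction in 6 of 6 pairs. The probe set 1418674_at gave 848, 968 and 508 on the DEX arrays at 6 hrs, against 1047, 1052 and 728 on the vehicle arrays. Values at 24 hrs were 671, 626 and 643 on the DEX arrays, against 771, 786 and 880 on the vehicle arrays. Every 24 hrs DEX array lay below every vehicle array. Over both times the estimate was -0.32 on the log2 scale, with a 95% interval of -0.69 to 0.05, and its adjusted p with each alternative stayed at or above 0.0865.

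The probe sets of Il6ra, which encodes the private IL-6 receptor chain, disagreed. The brighter one, 1422270_a_at, gave 40.4, 57.7 and 112 on the DEX arrays at 6 hrs, against 62.1, 52.4 and 69.4 on the vehicle arrays. Values at 24 hrs were 85.9, 88.3 and 121 on the DEX arrays, against 136, 153 and 92.2 on the vehicle arrays. It was lower in 3 of 6 pairs, and the log2 fold change over both times was -0.14 (95% interval -0.67 to 0.39). By contrast, 1452416_at gave 70.2, 49.4 and 42.2 on the DEX arrays at 6 hrs, against 24.2, 27.5 and 3.51 on the vehicle arrays, with no overlap. Only 1 of its 12 values reached 50, and it passed the minimum only through the DEX group at 6 hrs (mean 53.9). Its being tested thus already required a high DEX level there. At 24 hrs its values lay between 3.01 and 15.1, and neither time passed the threshold. Over both times its log2 fold change was 1.40 (adjusted p = 0.577).

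Socs3, the feedback inhibitor of gp130 signalling, was lower in 6 of 6 pairs at all 3 of its probe sets. At 6 hrs the probe set 1455899_x_at gave 281, 393 and 253 on the DEX arrays, against 404, 543 and 293 on the vehicle arrays. The 24 hrs values were 354, 406 and 396 on the DEX arrays, against 681, 504 and 612 on the vehicle arrays. The groups overlapped at 6 hrs and were separate at 24 hrs. The log2 fold change over both times was -0.51, with a 95% interval of -0.90 to -0.13 (adjusted p = 0.483). It passed the threshold with each pair as a block (adjusted p = 0.0448) and not with the hybridization day as a block (adjusted p = 0.0712). The other probe sets gave -0.47 (1456212_x_at) and -0.30 (1416576_at). The ending x_at marks probe sets with probes that also match other sequences, and 1416576_at has no such ending.

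**Figure D2:**
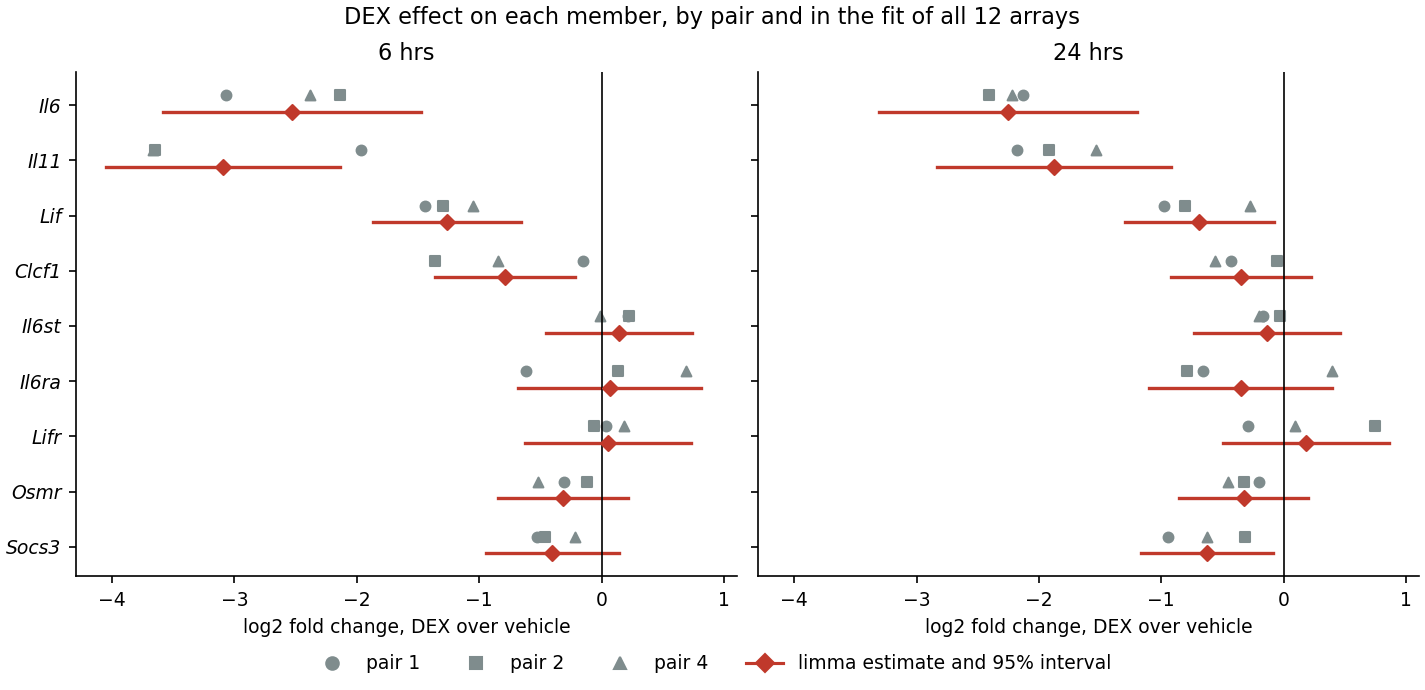
Log2 fold change of DEX over vehicle at 6 hrs (left) and 24 hrs (right) for the 9 genes, as the 3 pairs (grey symbols) and the limma estimate with its 95% interval (red). The intervals of Il6, Il11 and Lif lay below 0 at both times, while those of Il6st, Il6ra, Lifr and Osmr crossed it.

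Counted over the 9 genes, 1 fell at 6 hrs (Il11), none at 24 hrs and 2 over both times (Il6 and Il11), and none rose. Of all probe sets tested, 0.0287% fell at 6 hrs and 0.0383% at 24 hrs, and 0.167% fell when the times were averaged. At 24 hrs 4 of the 9 genes had an unadjusted p under 0.05 in limma, beside 6.24% of all probe sets, and a test with unequal variances called 0 of all 20897 probe sets. With each pair as a block 4 genes fell over both times (Il6, Il11, Lif and Socs3), beside 1.29% of all probe sets, and with the hybridization day as a block 3 did (Il6, Il11 and Lif), beside 1.07%. All 3 DEX arrays lay below all 3 vehicle arrays for 4 genes at 6 hrs (Il6, Il11, Lif and Clcf1), beside 2.96% of all probe sets. At 24 hrs this held for 4 genes (Il6, Il11, Osmr and Socs3), beside 10.9%. Il6, Il11, Lif, Clcf1, Osmr and Socs3, 6 of the 9, were lower in 6 of 6 pairs, as were 4.71% of all probe sets. The median log2 fold change over both times was -0.51 for the 9 genes and -0.02 for all probe sets. Il6 passed the minimum only through the vehicle group at 24 hrs and Il11 only through both vehicle groups, so their place among the probe sets tested already required a high vehicle level. The members were also chosen with earlier results of these data known, so the shares are given for scale and do not test the family.

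**Figure D3:**
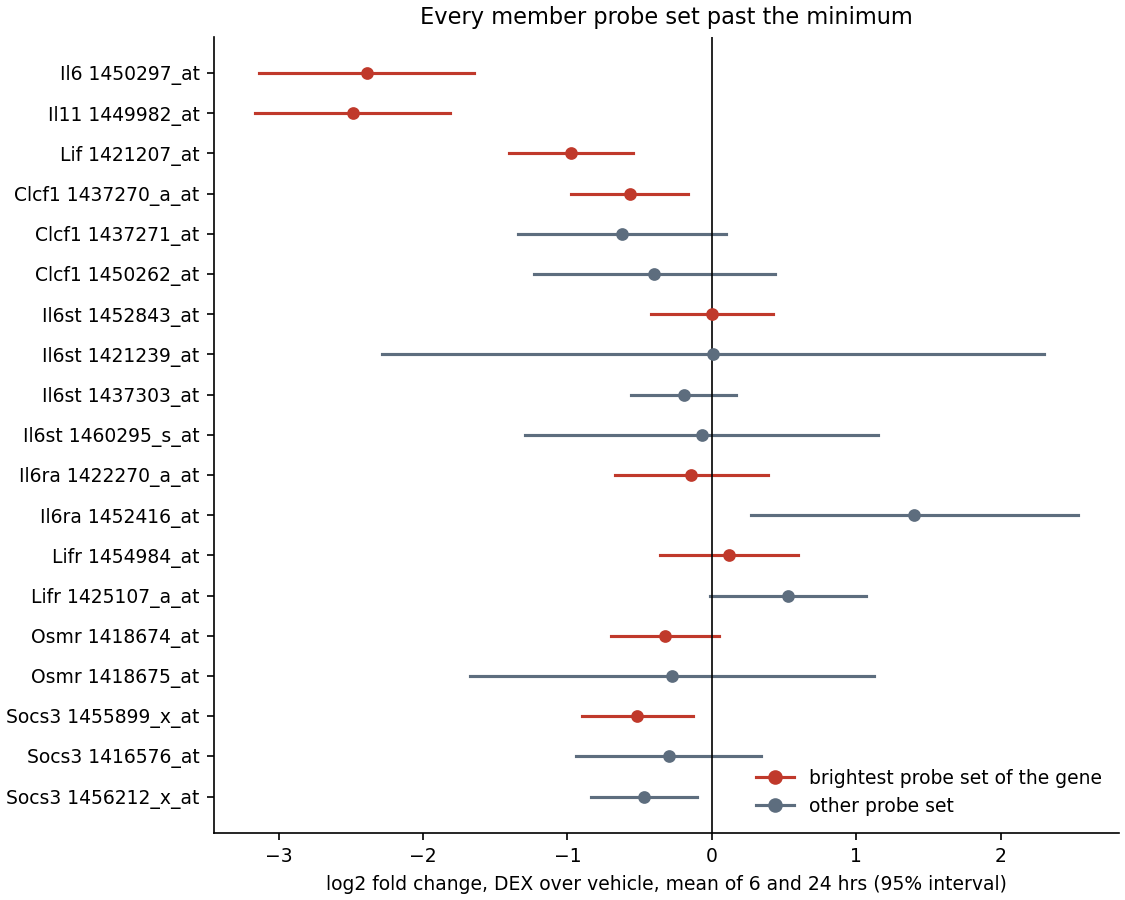
Log2 fold change of DEX over vehicle, as the mean of both times with its 95% interval, for the 19 probe sets of the family past the minimum, in red for the brightest of each gene. Probe sets of Clcf1 and of Socs3 lay on the same side of 0, whereas those of Il6ra lay on opposite sides.

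Some probe sets of the receptors and of Socs3 followed the hybridization day more than the treatment. The Il6st probe set 1421239_at lay between 4.40 and 19.1 on the 4 arrays of the third day and between 130 and 290 on the other 8. The Osmr probe set 1418675_at lay between 13.1 and 31.1 on those 4 arrays and between 163 and 234 on the other 8. At 1416576_at of Socs3 the third day gave 92.8 to 119 and the other days 248 to 546. DEX and vehicle arrays of a pair shared the day. For 1460295_s_at of Il6st, with 62.5 to 91.0 on the third day and 368 to 616 on the others, the 95% interval of the log2 fold change over both times was -0.29 to 0.15 with each pair as a block and -1.29 to 1.15 without it. The 4 days gave Il6 log2 fold changes of -2.41 (day 1, 24 hrs), -2.17 (day 2, 24 hrs), -2.60 (day 3, 6 hrs) and -2.38 (day 4, 6 hrs). For Il11 the same days gave -1.91, -1.86, -2.81 and -3.66, and for Lif -0.81, -0.63, -1.37 and -1.05.

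Whether the DEX effect differed between the times was tested as the effect at 24 hrs minus that at 6 hrs. No member gave a call. The estimate was 1.22 for Il11, a smaller fall at 24 hrs, with a 95% interval of -0.13 to 2.57, and 0.28 for Il6, with an interval of -1.21 to 1.77. In vehicle alone Il11 was lower at 24 hrs than at 6 hrs, with a log2 difference of -1.73 ± 0.43 (SE, n = 3 arrays a time, limma, adjusted p = 0.0705). In this contrast 6367 of all 20897 probe sets had an unadjusted p under 0.05 in limma. For Il6 the corresponding difference was 0.13, with an interval of -0.92 to 1.18. Because each hybridization day held 1 time point, this comparison cannot be told apart from the day.

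In bulk RNA, fewer cells of a type and less RNA per cell cannot be told apart, and markers of other cells are therefore given beside the cytokines. The summed intensity of the 8 macrophage genes was 727 to 1093 with DEX and 738 to 1355 with vehicle at 6 hrs. At 24 hrs it was 764 to 849 with DEX and 903 to 1023 with vehicle, with no overlap. None of the 8 passed the threshold over both times (2 at an unadjusted p under 0.05 in limma, 0 calls with unequal variances). All 8 had a log2 fold change below 0 over both times, with a median of -0.22, and Cd68 (-0.36, adjusted p = 0.531) and Lyz2 (-0.37) were lower in 6 of 6 pairs. The 17 fibroblast genes summed to 20641 to 33903 with DEX and 20515 to 34018 with vehicle at 6 hrs, and to 27083 to 35248 with DEX and 29875 to 30683 with vehicle at 24 hrs. None of these passed the threshold over both times (2 at an unadjusted p under 0.05 in limma, 0 calls with unequal variances), but Postn, at 1.01 on the log2 scale, passed in the blocked fit by pairs. Of the cartilage, muscle and endothelial genes none passed over both times, with or without the pair as a block (without it 1, 0 and 0 at an unadjusted p under 0.05 in limma, 0 calls with unequal variances). At 24 hrs the 10 muscle genes had a median log2 fold change of -0.43, with Des lowest at -1.22, and Myod1 (-0.57) passed with the hybridization day as a block (adjusted p = 0.0316). The endothelial gene Flt1, at 0.94, passed at 24 hrs with the pair (adjusted p = 0.0218) and with the day as a block (adjusted p = 0.0373). The part of these cells in the values of Il6, Il11 and Lif was not tested.

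Of the rest of the pathway, 71 genes were listed and 56 tested, and none passed the threshold in any DEX comparison. For the mean of the times 11 had an unadjusted p under 0.05 in limma, beside 5.65% of all probe sets, and the test with unequal variances called 0. Their median log2 fold change over both times was -0.03, beside -0.02 for all probe sets. With each pair as a block 4 rose over both times (Hp, Lcn2, Pias1 and Pik3r1), beside 1.9% of all probe sets, and 2 fell (Bcl3 and Il4ra), beside 1.29%. With the hybridization day as a block Pias1 and Pik3r1 rose, beside 1.8% of all probe sets, and Il4ra and Timp1 fell, beside 1.07%.

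By role, the 9 tested JAK and STAT genes lay between -0.22 and 0.12 over both times. Stat5a, at -0.22, and Tyk2, at -0.12, lay farthest from 0, and Stat3, the main STAT of the pathway, gave -0.10. Of the other ligands and receptors, only Ctf1 (cardiotrophin 1, -0.11) and Osm (oncostatin M, 0.04) passed the minimum. Cntfr, Ebi3, Il27ra, Il31 and Il31ra lay below it. The sheddases that release soluble IL-6 receptor gave 0.15 (Adam17, higher in 6 of 6 pairs) and -0.05 (Adam10), and neither passed the threshold.

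The 15 other negative regulators lay between -0.47 and 0.44. Socs5 was at the lower end (-0.47 ± 0.14, SE, adjusted p = 0.344) and Pias1, a SUMO ligase, at the upper end (0.44 ± 0.12, adjusted p = 0.199). Pias1 was higher in 6 of 6 pairs and passed with each pair as a block (adjusted p = 0.0479). Among the 7 adaptors of the ERK and AKT branch, Pik3r1, the regulatory subunit of PI 3-kinase, had the largest difference. Its mean was 311 ± 84.0 with DEX and 182 ± 42.5 with vehicle at 6 hrs, and 205 ± 13.2 with DEX and 112 ± 21.8 with vehicle at 24 hrs (SD, n = 3 each). The log2 fold change over both times was 0.83 ± 0.17 (SE, adjusted p = 0.0651), and it passed with each pair as a block (adjusted p = 0.00369). Irs1, the next in size, gave 0.27.

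Known STAT3 targets did not move in 1 direction. The 21 tested genes lay between -1.06 and 1.27 over both times, with a median of 0.07. In 6 of 6 pairs 5 were lower, beside 4.71% of all probe sets. Another 3 were higher in 6 of 6 pairs, for which the share of all probe sets was not computed. Il4ra, a cytokine receptor chain, averaged 43.0 ± 11.8 with DEX and 103 ± 60.5 with vehicle at 6 hrs, and 71.8 ± 8.99 with DEX and 148 ± 60.2 with vehicle at 24 hrs (SD, n = 3 each). Lcn2, which encodes an iron-binding acute phase protein, lay on the other side. It averaged 1526 ± 414 with DEX and 861 ± 554 with vehicle at 6 hrs, and 988 ± 217 with DEX and 395 ± 311 with vehicle at 24 hrs. Their log2 fold changes over both times were -1.06 (adjusted p = 0.181) and 1.27 (adjusted p = 0.290). Each passed with the pair as a block, Il4ra at an adjusted p of 0.0204 and Lcn2 at 0.0203.

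**Figure D4:**
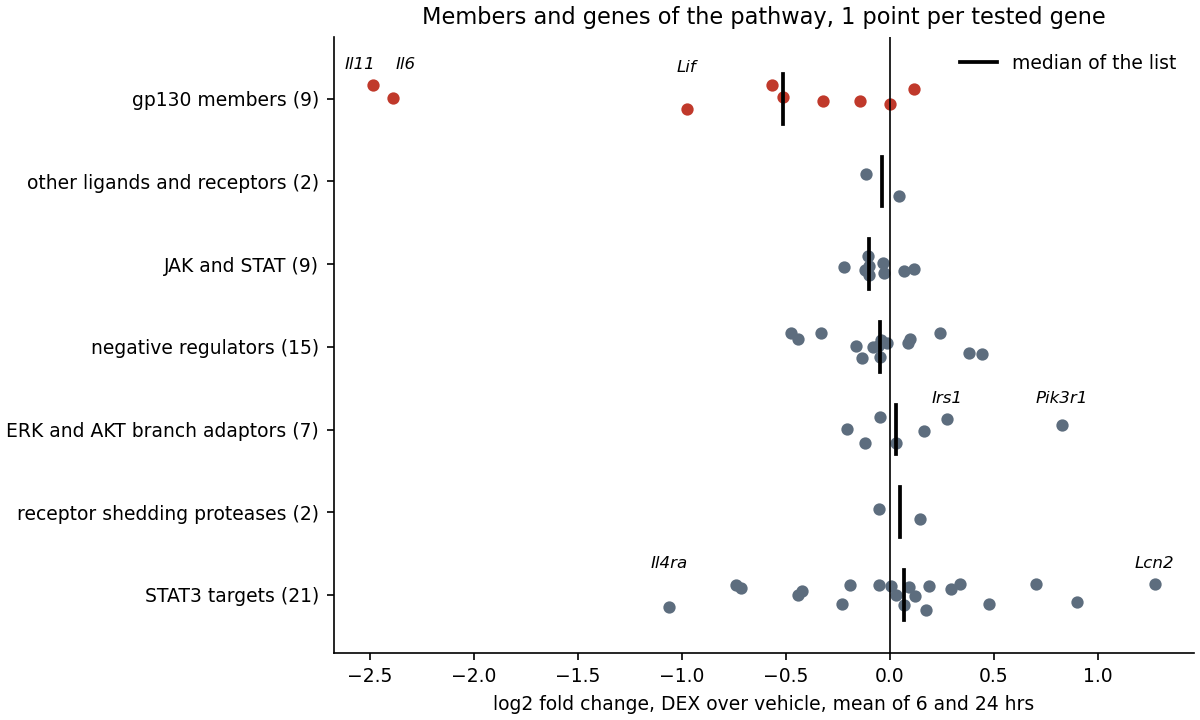
Log2 fold change of DEX over vehicle, as the mean of both times, for the 9 family members (red) and the tested genes of 6 pathway lists (grey), 1 point a gene, with a bar at each median. Il11 and Il6 lay below every gene of the pathway lists, and the STAT3 targets lay on both sides of 0.

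The pattern over the 12 arrays was described by Pearson correlation of log2 intensities centred on the mean of their hybridization day, across 11053 genes with 1 probe set each. All points share the arrays and the split into DEX and vehicle, so that any gene with a DEX difference scores highly. Il6 ran with Lif (r = 0.92), Osmr (0.90), Il11 (0.89), Socs3 (0.84) and Clcf1 (0.69). It was at 0.29 with Il6ra, at -0.04 with Il6st and at -0.28 with Lifr. Il11 had r = 0.89 with Clcf1, 0.83 with Lif, 0.79 with Osmr and 0.64 with Socs3. Many other genes lay closer, as Il11 had rank 72 for Il6 and Lif had rank 170 for Il11. The genes most like Il6 were Has2 (hyaluronan synthase, r = 0.99), Smox, Pde4b (a cyclic AMP phosphodiesterase), Stc1 and, as the fifth, Cdyl2 (0.98). For Il11 they were Crabp2 (0.98), Stx6, Tle2, Gpr19 and, as the fifth, Ier3 (0.96), and for Lif Zdhhc18 (0.97), Tcirg1, Chst1, Cdyl2 and, as the fifth, Lmo1 (0.94). All 14 of these genes were lower with DEX in 6 of 6 pairs. They were chosen by likeness to genes that were themselves lower in every pair, so this count is no separate result.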

How the data were processed

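RNA was hybridized to Affymetrix MOE 430 2.0 arrays. The authors computed the deposited intensity values with GC-RMA (no version stated). As a method it corrects background by probe sequence, quantile normalizes the arrays and summarises each probe set. The median intensity of an array nevertheless lay between 25.7 and 39.1, and whether the arrays were normalized together was not tested. No counts exist, so the 3 arrays of a group limit the precision. The array files named the hybridization day.

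The 12 columns were read on the linear scale, taken to log2 with no pseudocount, and fitted together with limma's lmFit and eBayes (3.58.1, R 4.3.3), with a mean for each group. Probe sets needed a group mean of at least 50, and p-values were adjusted by Benjamini-Hochberg over 20897 probe sets (threshold 0.05). The brightest probe set stood for a gene, and symbols came from the platform annotation. From each pathway list the text names every gene called, otherwise the 2 with the largest change over both times, and for likeness the 5 genes with the highest correlation. Members and lists were chosen with earlier results of these data known. Deviations of DEX and vehicle arrays with 1 number correlated at 0.63 to 0.86 (6 hrs) and 0.16 to 0.30 (24 hrs), so the numbers were taken as pairs. P-values set each difference against the spread between these arrays, and the fit without a block treats the arrays of a pair as independent. Alternatives were blocks by pair, number or day, other filters, 16 added before log2, median or quantile scaling, a Welch test of each contrast (the study ran a Welch ANOVA over the time course), a trended prior, subsets of arrays and other probe sets.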

Additional observations from a re-analysis of the deposited data

How the results depend on the processing

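The count of members past the threshold moved with the model. At 6 hrs 47 of all 20897 probe sets passed in the fit without a block. With replicate blocks by pair and by number 189 and 38 passed, and with the hybridization day as a block 198. The count of members in these fits was 1, 3, 2 and 3, in that order. It was 0 without a filter, with the 6 arrays alone, with the Welch test and without the third day (an alternative chosen after seeing the data, where single 6 hrs arrays are assumed to vary like the others). With the 6 arrays alone and with the Welch test, 0 of all 20897 probe sets passed at 6 hrs, so these zeros say nothing about the members. At 24 hrs 60 of all probe sets passed without a block, 449 with the pair and 455 with the day as a block. The count of members there was 0, and 2 with the pair or the day as a block. Of all probe sets 156 passed for the mean of the times, 668 with the pair as a block and 38 with the Welch test. The count of members for that mean was 2. Blocking by pair gave 4, the Welch test 1 (Il6), and 1 was left without the third day (Il11). With 1 array left out it ranged over 0 to 1 at 6 hrs, 0 to 0 at 24 hrs and 1 to 2 over both times. Il11 at 6 hrs lost its call without DEX replicate 2 (adjusted p = 0.0720) or 4 (0.0674) or without vehicle replicate 1 (0.0696), 2 (0.0818) or 4 (0.0675). Il6 was not tested without vehicle replicate 1 or 4 at 24 hrs, nor at a minimum of 100, where its means fell short. The difference between the times gave 0 members in every fit. The vehicle contrast between times gave 0 members and, with 1 array left out, 0 to 3, and the pair block cannot estimate it. It gave 2 without DEX 6 hrs replicate 4, where 2907 of all 21002 probe sets were called. Without vehicle 6 hrs replicate 4 it gave 3, where 6637 of all 21065 were called. With so many calls over all probe sets, these counts say little about the members. Signs turned only for Il6st, Il6ra and Lifr, none past the threshold in any fit. Il6st at 6 hrs turned to -0.016 without the third day and to -0.041, -0.033 and -0.066 with its other probe sets, and lay between -0.062 and 0.41 with 1 array left out. At 24 hrs it turned to 0.061 with 1421239_at, and lay between -0.26 and 0.0044 with 1 array left out. Over both times it turned to -0.011 (quantile), -0.075 (without the third day), -0.20 (1437303_at) and -0.069 (1460295_s_at), and lay between -0.098 and 0.14 with 1 array left out. Il6ra turned to 0.81 at 24 hrs and 1.40 over both times with 1452416_at, and to 0.17 over both times without the third day. With 1 array left out it lay between -0.34 and 0.40 at 6 hrs and between -0.34 and 0.024 over both times, and Lifr at 6 hrs between -0.13 and 0.20. The cause of these moves was not tested.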
